A study of Mus musculus with 6 samples.

Results

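The genes described here are 9 transcription factors of prostate epithelial identity: Foxa1, Foxa2, Gata2, Gata3, Sox2, Sox4, Sox9, Elf3 and Grhl2. They were taken by symbol from a table of raw read counts for 24498 genes, and all 9 were in it. The counts came from 6 RNA-seq libraries of lineage-marked epithelial cells sorted from the prostates of male mice. Nkx intact and Nkx castrate cells came from the line labelled Nkx, in which an inducible Cre recombinase, CreER(T2), switches on a yellow fluorescent reporter (EYFP) at the Rosa locus, and Clu intact cells came from a line in which CreER(T2) is expressed from Clu, which encodes the chaperone clusterin, and switches on a red reporter (tdTomato) at the Rosa locus. The castration was done at an age of 8 weeks, tissue was taken 4 weeks after that age in all groups, and no castrated group of the Clu line was among the samples. The labels also give an age range of 7 to 13 weeks for every sample.

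Each of the 3 groups held 2 libraries, named here by group and number (Nkx intact 1). Whether the paired libraries of a group are different animals is not stated in the labels. The p-values therefore measure only library-to-library spread, which may be technical. The libraries also show the marked cells of a line and not a pure cell type, since a mark stays with a cell and its progeny after Cre has acted and the labels give no time of induction. Clu intact differs from the Nkx groups in both the driver and the reporter.

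Forkhead A factors (Foxa1, Foxa2) and GATA factors (Gata2, Gata3) are known as pioneer factors, which bind closed chromatin and open it for others. In prostate cells Foxa1 and Gata2 are known for keeping enhancers of luminal genes open. SOX factors bend DNA through a high-mobility-group domain, and Sox9, Sox4 and Sox2 are linked to progenitor states and growth of many epithelia. Elf3 belongs to the ETS family and Grhl2 to the grainyhead family, both known for maintaining epithelial differentiation and cell junctions.

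The libraries held between 10220118 and 17412874 counts, so that 1 count equalled 0.0561 to 0.0988 CPM, the count scaled to library size with TMM factors. The epithelial markers Epcam and Krt8 were at 336 CPM or more and at 705 CPM or more in every library. RNA of other cell types varied. The 15 leukocyte markers summed to 480 CPM in Nkx castrate 1 and to between 46.2 and 211 CPM in the other 5 libraries, and the 13 fibroblast and smooth muscle markers to 2237 CPM in Nkx castrate 1 and to between 562 and 763 CPM in the others. Summed endothelial markers (12 genes) reached 1179 CPM in Clu intact 1, 485 CPM in Clu intact 2 and 518 CPM in Nkx castrate 1, with 57.0 to 82.6 CPM in the remaining libraries. Summed basal markers (12 genes) lay between 3713 and 6115 CPM, lowest in Nkx castrate 2 and highest in Nkx intact 2. This sum does not show single genes, which differed in pattern. Trp63 was at 249 and 238 CPM (Nkx intact), 61.5 and 34.7 CPM (Nkx castrate) and 13.2 and 24.6 CPM (Clu intact). Krt5 was at 399 and 393, 288 and 157, and 61.8 and 99.2 CPM in the same order, while Krt15 was at 981 CPM or more in every library. The 10 proximal luminal markers, of luminal cells near the urethra, summed to between 423 and 462 CPM in the 4 Nkx libraries and to 4228 and 4747 CPM in Clu intact. The similar Nkx sums joined genes that went opposite ways. Cp was at 252 and 252 CPM (Nkx intact), 67.2 and 69.6 CPM (Nkx castrate) and 37.0 and 53.8 CPM (Clu intact). Krt4 was at 13.9 and 21.7, 55.3 and 72.3, and 899 and 1123 CPM in the same order.

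Promoter windows of 7 of the 9 genes were found in RefSeq (build GRCm38.p6, earlier than the build named for the counts, GRCm39). The 250 bases before the annotated start are printed for Elf3 and Sox2, the genes called higher in Clu intact than in Nkx castrate, and for Foxa1, whose level in Clu intact was within 0.41 log2 units of that in Nkx intact at the wider end of its 95% interval. The Elf3 window is chr1:135258473-135258722 on the minus strand, the Sox2 window chr3:34649745-34649994 on the plus strand and the Foxa1 window chr12:57546112-57546361 on the minus strand. Bases just after the annotated start were found in a GENCODE M21 transcript of the gene for Elf3 and Foxa1 but not for Sox2. The start used for Sox2 is therefore less sure. Capitals mark matches, on either strand, to any of 5 short motifs, whose letters follow the sequences.
Elf3: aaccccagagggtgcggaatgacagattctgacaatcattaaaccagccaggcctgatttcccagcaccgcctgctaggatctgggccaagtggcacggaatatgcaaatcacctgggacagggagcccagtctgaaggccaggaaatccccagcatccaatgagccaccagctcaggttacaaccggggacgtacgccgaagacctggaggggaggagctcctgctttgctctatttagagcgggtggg
Sox2: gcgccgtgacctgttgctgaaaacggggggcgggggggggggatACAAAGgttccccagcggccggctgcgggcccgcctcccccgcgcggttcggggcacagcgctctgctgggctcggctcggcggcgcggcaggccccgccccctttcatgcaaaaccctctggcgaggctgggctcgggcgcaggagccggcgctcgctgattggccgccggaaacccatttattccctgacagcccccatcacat
Foxa1: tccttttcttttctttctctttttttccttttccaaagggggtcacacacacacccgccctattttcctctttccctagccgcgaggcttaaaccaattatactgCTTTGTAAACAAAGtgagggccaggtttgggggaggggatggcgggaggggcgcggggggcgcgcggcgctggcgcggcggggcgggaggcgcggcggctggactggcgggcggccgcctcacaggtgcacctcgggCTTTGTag

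The Foxa1 window held 1 forkhead match and 3 SOX matches, of which 2 overlapped the forkhead match in the run of capitals 145 bases before the start. The Sox2 window held 1 SOX match and the Elf3 window none of the 5 motifs. Among 32536 mouse windows of the same length, 3.17% held the forkhead motif, which was searched as TGTTTAC. The SOX motif, searched as ACAAAG, was in 16.5% of windows. The GATA motif, searched as AGATAA, was in 9.97%. The ETS motif, searched as CCGGAAG, was in 6.95%. The grainyhead motif, searched as AACCGGTT, was in 0.117%. The windows of Gata2 (2 windows), Gata3 and Sox4 held no match, and 1 of the 3 Foxa2 windows held a GATA match and a SOX match. These matches describe letters in the reference genome and are not evidence of binding.

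Of the 9 factors, 8 had enough counts to be tested in each comparison (edgeR's filter kept 13846 genes). Foxa2 was the exception. It had 2 counts in Nkx castrate 1 (0.112 CPM) and 0 counts in the other 5 libraries. A count of 0 allows up to 3 counts, or between 0.222 and 0.296 CPM in those 5 libraries. Neuroendocrine cells of the mouse prostate are known to express Foxa2 and Sox2, but Sox2 is not particular to them. Genes that define neuroendocrine cells were low or at 0. Neurod1 had no count in any library, Insm1 had counts in Nkx castrate 1 alone (0.561 CPM), and Chga was between 0.444 and 7.90 CPM. The 15 neuroendocrine markers summed to between 13.3 and 71.9 CPM in the 6 libraries, of which Ncam1, a cell adhesion gene that other cells also express, gave 11.9 to 61.2 CPM.

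**Figure D1:**
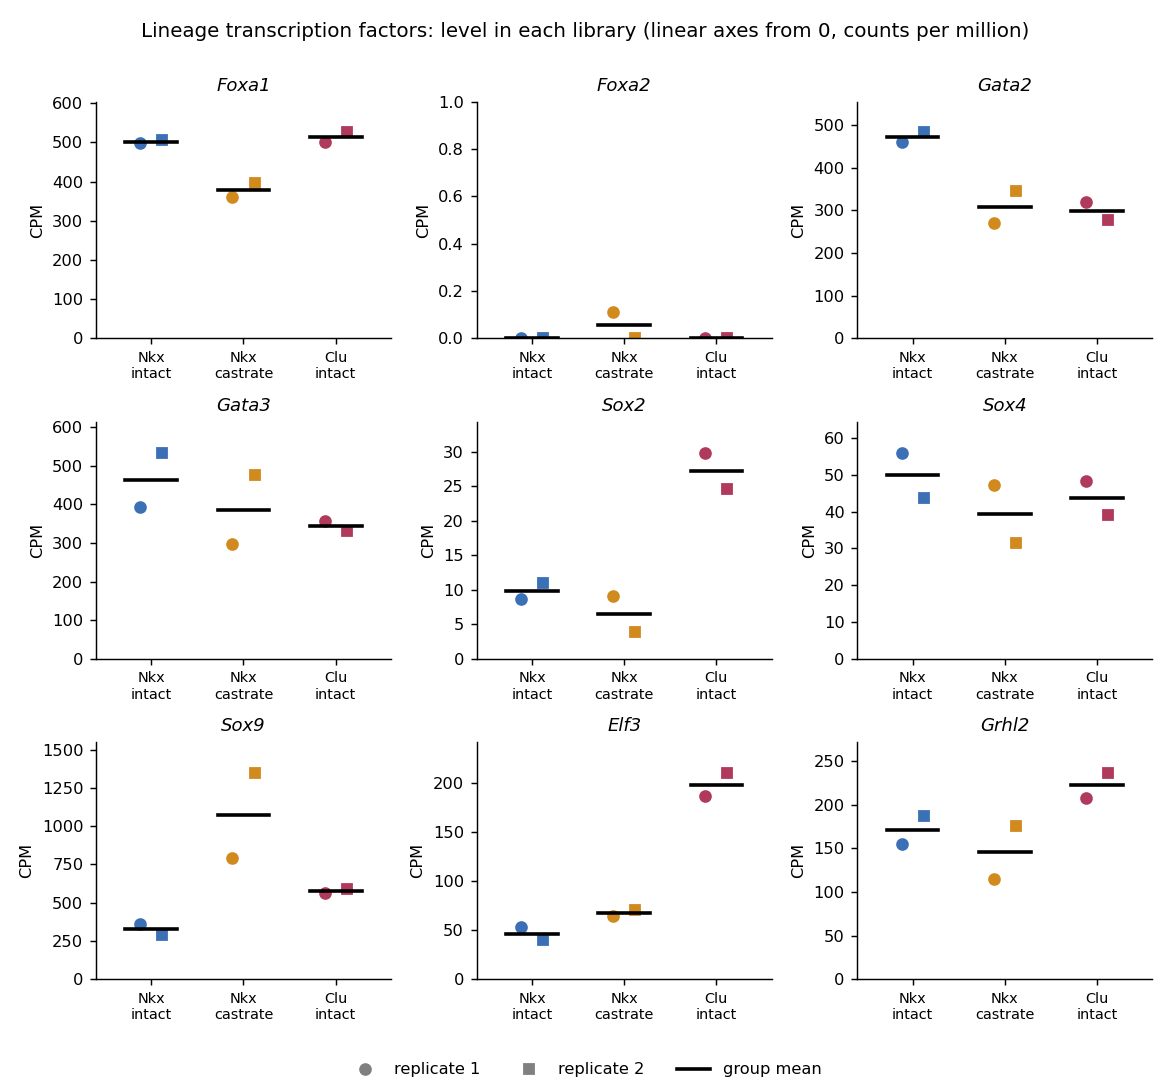
Level of each of the 9 factors in each of the 6 libraries, in CPM on linear axes that start at 0 and differ between panels. Circles and squares are replicates 1 and 2 and black lines are group means. Sox9 was highest in the Nkx castrate libraries (794 and 1347 CPM), Elf3 and Sox2 were highest in the Clu intact libraries, and Foxa2 was at or near 0 in all 6.

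Levels of different genes were compared per kb of exon, with exon lengths of the GENCODE M21 annotation, which is not the one the authors counted with. In Nkx intact the order of mean levels, in CPM per kb, was Foxa1 (151), Gata3 (116), Gata2 (87.3), Sox9 (78.6), Elf3 (21.0), Grhl2 (19.9), Sox4 (10.4) and Sox2 (4.76). The libraries of Gata2 and Sox9 overlapped in this order, as did those of Elf3 and Grhl2. In Nkx castrate Sox9 came first with 259 ± 94.5 CPM per kb (SD, n = 2), followed by Foxa1 (114), Gata3 (97.2), Gata2 (57.0), Elf3 (30.6), Grhl2 (16.9), Sox4 (8.21) and Sox2 (3.16). Only Foxa1 and Gata3 overlapped among these neighbours. In Clu intact the order was Foxa1 (154), Sox9 (139), Elf3 (89.5), Gata3 (86.3), Gata2 (55.4), Grhl2 (25.8), Sox2 (13.2) and Sox4 (9.12), with overlap of the libraries of Elf3 and Gata3 only. Elf3 thus had a level per kb beside that of Gata3 in Clu intact and below that of both GATA factors in the Nkx groups. In Nkx intact, Foxa1 was above 98.4% of the tested genes with an exon length, Elf3 above 85.8% and Sox2 above 50.9%.

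**Figure D2:**
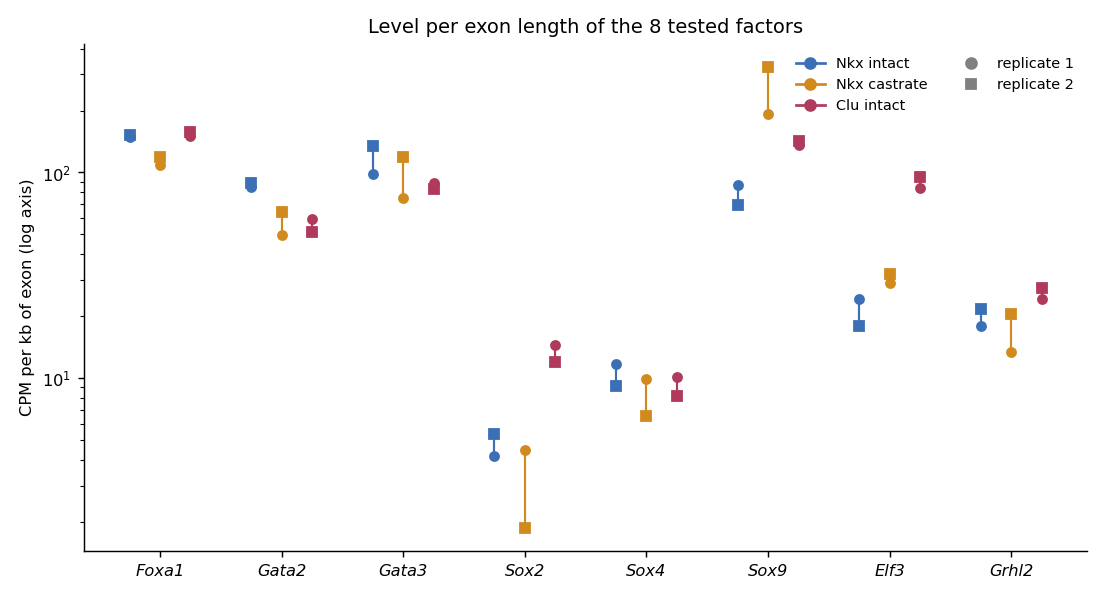
Level of the 8 tested factors per kb of exon (CPM per kb, log axis), with 1 point per library and a line joining the 2 libraries of a group. Foxa1, Gata3, Gata2 and Sox9 lay between 49.9 and 326 CPM per kb in all libraries, and Elf3 reached that range in Clu intact (84.1 and 94.9 CPM per kb).

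Nkx castrate was set against Nkx intact to describe the factors in Nkx-marked cells after castration. Sox9 rose and was the 1 factor called among the 8 tested, where 8.61% of all tested genes were called in either direction (4.02% higher and 4.59% lower). Nkx intact had Sox9 levels of 361 and 289 CPM, and Nkx castrate of 794 and 1347 CPM. The lower castrate library stood at more than the higher intact library, so the groups did not overlap. The means were 325 ± 51.3 and 1070 ± 391 CPM (SD, n = 2), a 3.29-fold difference with a log2 fold change of 1.72 (SE 0.27, 95% interval 1.10 to 2.34). The adjusted p was 0.00875 in edgeR's quasi-likelihood test, adjusted by Benjamini-Hochberg over all genes. The call was lost without either Nkx intact library, where the log2 fold changes were 1.88 and 1.56 with adjusted p = 0.0728 and 0.132 (edgeR quasi-likelihood, Benjamini-Hochberg). It was 2.05 without Nkx castrate 1, the library with the most leukocyte and stromal marker RNA, and 1.28 without Nkx castrate 2, and called in both cases. Sums of marker genes of epithelial types differed between the same groups, and their part in the Sox9 difference was not tested. The 12 distal luminal secretory markers summed to 16858 and 21383 CPM (Nkx intact) against 452 and 472 CPM (Nkx castrate), and the 10 seminal vesicle markers to 82.8 and 151 CPM against 1.57 and 0.0739 CPM. The sum of the 7 general luminal markers was higher in both Nkx castrate libraries (10170 and 13330 CPM) than in Nkx intact (5960 and 5222 CPM). So was that of the 8 urothelial markers (1128 and 1514 CPM against 248 and 268 CPM). Not every gene rose, since Cd24a was at 562 and 657 CPM in Nkx castrate against 1066 and 861 CPM in Nkx intact. Sprr1a, at 776 and 980 CPM in Nkx castrate, gave the largest part of the urothelial sum. The luminal and urothelial sums lay between in Clu intact, at 7487 and 8313 CPM for luminal and 560 and 546 CPM for urothelial markers. Single genes of both lists did not all lie between. Krt18 was at 621 and 561 CPM in Clu intact, below all 4 Nkx libraries. Upk3a was at 0.337 and 0 CPM in Clu intact and 146 and 197 CPM in Nkx castrate, while Upk2 was highest in Clu intact (20.6 and 23.5 CPM). Of the 12 basal markers, 2 (Trp63 and Lamb3) were called lower in Nkx castrate and 0 higher, beside 4.59% and 4.02% of all tested genes. Of the 13 fibroblast and smooth muscle markers, 6 were called higher, Myh11 among them, and 0 lower. Myh11 was also higher in Nkx castrate 2 (250 CPM) than in Nkx intact (64.7 and 44.8 CPM), so the fit without Nkx castrate 1 still held this difference. In bulk libraries, more cells with a transcript and more transcript per cell cannot be told apart.

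Foxa1, Gata2 and Gata3 had lower mean levels in Nkx castrate but were not called. Foxa1 was at 497 and 505 CPM (Nkx intact) and 361 and 397 CPM (Nkx castrate). The groups did not overlap and the log2 fold change was -0.40 (SE 0.16, 95% interval -0.78 to -0.03), with adjusted p = 0.179 in edgeR's quasi-likelihood test (Benjamini-Hochberg). Gata2 was at 460 and 482 CPM (Nkx intact) and 269 and 346 CPM (Nkx castrate), again without overlap, with a log2 fold change of -0.61 (SE 0.19) and adjusted p = 0.0922 in the same edgeR test. DESeq2 called Gata2 lower (adjusted p = 0.0194), and so did edgeR without Nkx castrate 2 (adjusted p = 0.00809) or without a filter on low counts (adjusted p = 0.0417). Gata3, which is also known for its role in T cells and in breast luminal cells, overlapped between the groups (392 and 533 CPM against 298 and 475 CPM). Its log2 fold change was -0.26 with a 95% interval from -0.85 to 0.33, and it was 0.04 without Nkx castrate 1.

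Elf3 stood at 53.5 and 39.5 CPM in Nkx intact and at 64.5 and 71.0 CPM in Nkx castrate, without overlap. Its log2 fold change of 0.54 (SE 0.20) was not called (adjusted p = 0.150, edgeR quasi-likelihood, Benjamini-Hochberg). Grhl2, Sox4 and Sox2 overlapped between the groups. Grhl2 was at 155 and 187 CPM (Nkx intact) and 115 and 176 CPM (Nkx castrate), and Sox4 at 56.0 and 43.7 CPM against 47.2 and 31.5 CPM. Sox2 was at 8.61 and 10.96 CPM (Nkx intact) and 9.15 and 3.84 CPM (Nkx castrate), the widest relative spread within a group among the tested factors. Its log2 fold change of -0.58 became -1.34 and was called (adjusted p = 0.0352, edgeR quasi-likelihood) without Nkx castrate 1. In this comparison the libraries of 4 of the 8 tested factors did not overlap, where 49.9% of all tested genes did not. Before adjustment, p was under 0.05 for 4 of the 8 factors and for 23.6% of all tested genes. The median log2 fold change of the 8 factors was -0.30, against 0.05 over all tested genes.

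The comparison of Clu intact with Nkx intact sets the factors in cells of the Clu line against those of the Nkx line in uncastrated mice. Elf3 was higher in Clu intact and was the 1 factor called of 8, where 11.3% of all tested genes were called in either direction (6.29% higher). It was at 187 and 210 CPM in Clu intact against 53.5 and 39.5 CPM in Nkx intact. Both Clu libraries lay above both Nkx libraries. The means were 198 ± 16.9 and 46.5 ± 9.87 CPM (SD, n = 2), a 4.27-fold difference with a log2 fold change of 2.09 (SE 0.21, 95% interval 1.62 to 2.57) and adjusted p = 0.00112 in edgeR's quasi-likelihood test (Benjamini-Hochberg). With each of the 6 libraries left out in turn the log2 fold change lay between 1.90 and 2.34, and adjusted p was at most 0.0234. The proximal luminal, endothelial, general luminal and urothelial marker sums were also higher in both Clu intact libraries than in both Nkx intact libraries. Lower in both were the basal, seminal vesicle, leukocyte and neuroendocrine sums and the distal luminal secretory sum (10397 and 8703 CPM in Clu intact). The fibroblast and smooth muscle sums overlapped. The part of these differences in that of Elf3 was not tested.

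Sox2 and Sox9 had higher means in Clu intact than in Nkx intact without being called. Sox2, a factor of pluripotent cells and of several stem cell compartments, was at 29.9 and 24.6 CPM in Clu intact and at 8.61 and 10.96 CPM (Nkx intact), with no overlap. The log2 fold change was 1.47 (SE 0.44, 95% interval 0.47 to 2.48) and adjusted p = 0.0710 in edgeR's quasi-likelihood test (Benjamini-Hochberg). Sox9 was at 560 and 588 CPM in Clu intact and 361 and 289 CPM (Nkx intact), a log2 fold change of 0.82 (SE 0.26) with adjusted p = 0.0921 in the same edgeR test. Both genes were called higher by DESeq2 (adjusted p = 0.0222 and 0.0193). They were also called when only the groups compared entered the edgeR fit, adjusted p being 0.00336 for Sox2 and 0.00274 for Sox9, without a filter on low counts (0.00304 and 0.00232) and when either Nkx castrate library was left out (at most 0.00285 and 0.00169).

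Gata2 was at 320 and 277 CPM in Clu intact against 460 and 482 CPM in Nkx intact. The groups did not overlap and the log2 fold change was -0.66 (SE 0.19, 95% interval -1.09 to -0.22), with adjusted p = 0.0647 in edgeR's quasi-likelihood test (Benjamini-Hochberg). The call changed with the processing. Gata2 was called lower by DESeq2 (adjusted p = 0.00666), with upper quartile scaling (0.0449), without a filter (0.0244), with only the groups compared (0.00544) and without either Nkx castrate library (0.00378 and 0.00481), each of the last 4 in the edgeR fit. Gata3 was at 355 and 331 CPM in Clu intact, below both Nkx intact libraries, with a log2 fold change of -0.43 (SE 0.26) and adjusted p = 0.340. Endothelial cells are known to express Gata2. The endothelial marker sums were 1179 and 485 CPM in Clu intact and 82.6 and 57.0 CPM in Nkx intact, and their part in the Gata2 levels was not tested.

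Foxa1 differed least. It was at 501 and 526 CPM in Clu intact and 497 and 505 CPM (Nkx intact), with overlap. The log2 fold change of 0.03 had a 95% interval from -0.34 to 0.41, and 95.6% of the tested genes had a larger difference in either direction. Grhl2 was at 208 and 236 CPM in Clu intact, above both Nkx intact libraries, with a log2 fold change of 0.38 (SE 0.23) that was not called (adjusted p = 0.352, edgeR quasi-likelihood, Benjamini-Hochberg). Sox4 was at 48.4 and 39.0 CPM in Clu intact and overlapped with Nkx intact (95% interval of the log2 fold change -0.81 to 0.43). The libraries of 6 of the 8 tested factors did not overlap in this comparison, where 63.2% of all tested genes did not. Before adjustment, p was under 0.05 for 4 of the 8 factors and for 26.2% of all tested genes. The median log2 fold change was 0.21 over the factors and -0.01 over all tested genes.

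**Figure D3:**
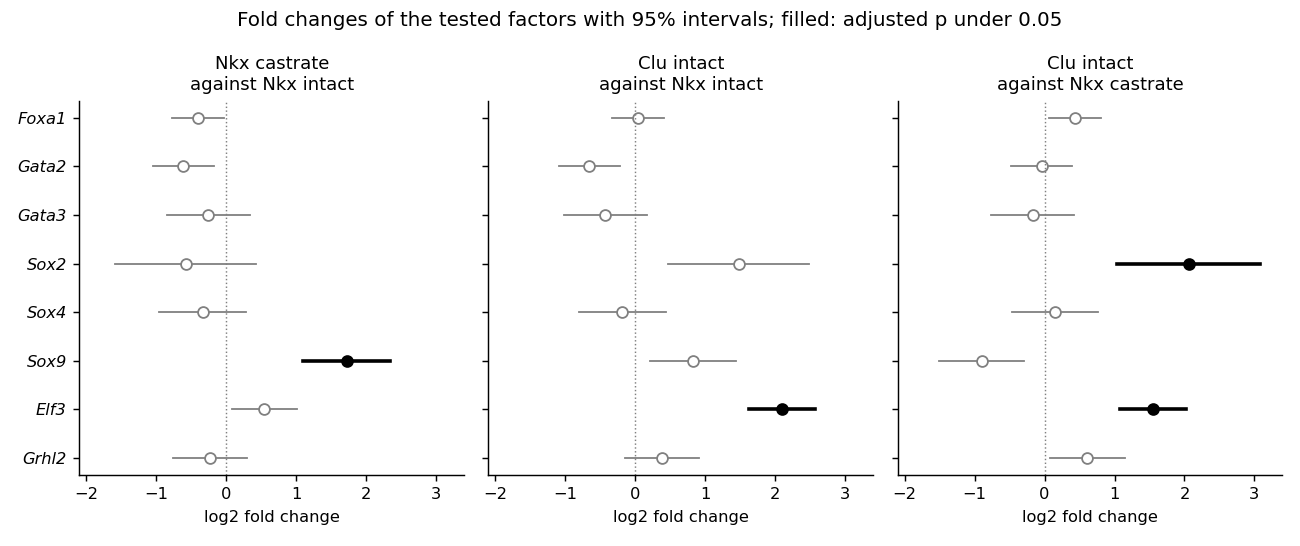
Log2 fold change of the 8 tested factors in the 3 comparisons (points) with unadjusted 95% intervals (lines). Filled points passed an adjusted p of 0.05 in edgeR's quasi-likelihood test: Sox9 in Nkx castrate against Nkx intact, Elf3 in both comparisons of Clu intact, and Sox2 in Clu intact against Nkx castrate.

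The comparison of Clu intact with Nkx castrate uses the same 6 libraries and shares each of its groups with a comparison above. Elf3 and Sox2 were higher in Clu intact, which made 2 of 8 factors called where 16.9% of all tested genes were called (8.82% higher and 8.1% lower). The Elf3 levels of 187 and 210 CPM in Clu intact stood against the 64.5 and 71.0 CPM of Nkx castrate, with a log2 fold change of 1.55 (SE 0.20, adjusted p = 0.00250 in edgeR's quasi-likelihood test). It stayed called with any library left out, with adjusted p of at most 0.0265. The Sox2 levels of 29.9 and 24.6 CPM stood against 9.15 and 3.84 CPM, a 4.16-fold difference with a log2 fold change of 2.06 (SE 0.44, 95% interval 1.04 to 3.08) and adjusted p = 0.0171. Both Sox2 and Elf3 had no overlap between the groups. The Sox2 call was lost without either Clu intact library (adjusted p = 0.0950 and 0.0733), and its log2 fold change was 2.82 without Nkx castrate 1.

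Sox9 had a lower mean in Clu intact (574 ± 19.7 CPM) than in Nkx castrate (1070 ± 391 CPM, SD, n = 2). The groups did not overlap, with a log2 fold change of -0.90 (SE 0.26) and adjusted p = 0.0539 in edgeR's quasi-likelihood test (Benjamini-Hochberg). The fold was -1.23 without Nkx castrate 1, where it was called (adjusted p = 0.000220), and -0.46 without Nkx castrate 2. Sox9 was also called lower by DESeq2 (adjusted p = 0.00483), with upper quartile scaling (0.0351), without a filter (0.000647) and with the replicate number as a block (0.0441), each of the last 3 in the edgeR fit. The order of mean Sox9 levels was Nkx intact, Clu intact and Nkx castrate, and of these steps the test called the difference between the first and the last.

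Grhl2 and Foxa1 did not overlap between Clu intact and Nkx castrate and were not called. Grhl2 had a log2 fold change of 0.61 (SE 0.23, adjusted p = 0.1098) and Foxa1 of 0.44 (SE 0.16, adjusted p = 0.103) in edgeR's quasi-likelihood test (Benjamini-Hochberg). Grhl2 was called without a filter (adjusted p = 0.0281), with the replicate block (0.0370) and without Nkx castrate 2 (0.00388), where its log2 fold change was 0.96. Foxa1 was called by DESeq2 (adjusted p = 0.0251) and, with edgeR, on library totals alone (0.0478) and without Nkx castrate 2 (0.0345). Gata2, Gata3 and Sox4 overlapped between these groups. Their 95% intervals of the log2 fold change were -0.48 to 0.39 for Gata2, -0.76 to 0.42 for Gata3 and -0.47 to 0.77 for Sox4. The libraries of 5 of the 8 factors did not overlap, where 61.4% of all tested genes did not. Before adjustment, p was under 0.05 for 5 of the 8 factors and for 32.5% of all tested genes.

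Ratios within a library, which do not depend on scaling, showed how the balance of factors differed. The count ratio of Sox9 to Foxa1 was 0.726 and 0.571 (Nkx intact), 2.20 and 3.39 (Nkx castrate) or 1.12 in both Clu intact libraries. These values did not overlap between any of the groups. The count ratio of Elf3 to Grhl2 was 0.345 and 0.211 (Nkx intact), 0.560 and 0.404 (Nkx castrate) or 0.896 and 0.890 (Clu intact), also without overlap. The count ratio of Gata2 to Gata3 ran from 0.729 to 1.17. It overlapped between Nkx castrate and Clu intact, and the lower Nkx intact value (0.904) was equal, to 3 digits, to the higher Nkx castrate value. Such ratios show unequal change and not which gene moved.

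The genes with the pattern nearest to each factor were found by the distance between log2 CPM values centred on each gene's mean over the 6 libraries, among genes with a mean of at least 10 CPM (9031, each member itself left out). Sox9 was nearest to Slc22a23, a transporter-family gene (distance 0.292, Pearson's r = 0.987), then to Lasp1, an actin-binding LIM protein, and Slc44a1, a choline transporter. Elf3 was nearest to Prr15l (distance 0.223, r = 0.995), then to Bnipl and to Rnf130, a ubiquitin ligase. Sox2 was nearest to Hs3st1, a heparan sulphate sulphotransferase (distance 0.403, r = 0.991), then to Mecom, a zinc finger transcription factor. Foxa1 was nearest to Zfpm1, a cofactor of GATA proteins (distance 0.0667, r = 0.995). The nearest genes of the others were Eif2b4 for Gata2, N6amt1 for Gata3, Coro7 for Sox4 and Lmbrd2 for Grhl2, at distances from 0.109 to 0.174. With 6 libraries and so many candidates, each distance is a description of these libraries.

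Other members of the same families were taken from a list of 75 genes, of which 48 had enough counts to be tested and 14 were called in at least 1 comparison. In Nkx castrate against Nkx intact 4 were higher and 4 lower, in Clu intact against Nkx intact 6 were higher and 1 lower, and in Clu intact against Nkx castrate 6 were higher and 4 lower. The shares of all tested genes called in these comparisons were 8.61%, 11.3% and 16.9%. The counts moved when a library was left out, and so did the number of all genes called. The median log2 fold change of the list was 0.19 in the first comparison. It was -0.02 without Nkx castrate 1 and 0.45 without Nkx intact 1. In the second it was 0.07, with 0.02 without Nkx castrate 1 and 0.38 without Nkx intact 1. In the third it was 0.06, with -0.16 without Nkx castrate 2 and 0.23 without Nkx castrate 1.

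The epithelial ETS genes were described beside Elf3. Ehf, Elf5 and Spdef, ETS factors of glandular epithelia, all fell with castration and all were higher in Clu intact than in Nkx castrate. Ehf was at 668 and 855 CPM (Nkx intact), 320 and 420 CPM (Nkx castrate) and 1193 and 1314 CPM (Clu intact). The log2 fold changes were -1.04 (SE 0.21, adjusted p = 0.0247) with castration and 1.76 (SE 0.22, adjusted p = 0.00210) in Clu intact against Nkx castrate. Elf5 changed by -3.32 (SE 0.57) and 3.34 (SE 0.56) on the log2 scale in these comparisons, from 8.13 and 13.2 CPM in Nkx intact to 0.673 and 1.48 CPM in Nkx castrate, and Spdef by -1.76 (SE 0.32) and 1.55 (SE 0.32). Their adjusted p-values from edgeR's quasi-likelihood test (Benjamini-Hochberg) were 0.0116 and 0.00710 for Elf5 and 0.0148 and 0.0141 for Spdef. The difference between Elf3 and these genes was not tested. Elf4, another ETS factor, was higher in Clu intact than in Nkx intact (log2 fold change 1.09, SE 0.24). The castration calls of Ehf and Spdef were lost without either Nkx intact library, that of Elf5 without Nkx intact 2 and that of Ehf also without Clu intact 2. Without Nkx castrate 2 the Elf5 values were -3.97 and 4.00. The Spdef call in Clu intact against Nkx castrate and the Elf4 call were lost without either Clu intact library, and the Elf4 call also without either Nkx intact library.

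In the grainyhead and CP2 family, Tfcp2l1, a CP2 factor of epithelial ducts and pluripotent cells, was at 36.3 and 24.4 CPM (Nkx intact), 81.9 and 104 CPM (Nkx castrate) and 341 and 429 CPM (Clu intact). It was called in all 3 comparisons, with log2 fold changes of 1.61 (SE 0.25), 3.66 (SE 0.27) and 2.05 (SE 0.25) in the order used above. Adjusted p was 0.00817, 0.000424 and 0.00188 in edgeR's quasi-likelihood test. The first of these calls was lost without Nkx intact 2. Grhl1, a factor of surface epithelia, rose with castration from 94.6 and 96.8 CPM to 197 and 216 CPM (log2 fold change 1.11, SE 0.16) and was at 138 and 142 CPM in Clu intact, lower than in Nkx castrate (log2 fold change -0.57, SE 0.16). Its adjusted p-values were 0.00623 and 0.0431 in edgeR's test. Both calls were lost without either Nkx intact library, and the second also without Nkx castrate 2 or either Clu intact library. Grhl3, a factor of the epidermal barrier and of urothelium, was at 12.2 and 17.4 CPM in Clu intact and at 1.78 CPM or less in every Nkx library. It was called higher against both Nkx groups (log2 fold changes 3.07 and 3.47, adjusted p = 0.0124 and 0.00592), the first call being lost without any 1 of the Nkx intact or Clu intact libraries and the second without Clu intact 2.

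Among other SOX genes, Sox13 was higher in Clu intact (139 and 151 CPM) than in Nkx intact (34.8 and 22.7 CPM) and Nkx castrate (33.6 and 48.9 CPM). The log2 fold changes were 2.33 (SE 0.28, adjusted p = 0.00245) and 1.81 (SE 0.27, adjusted p = 0.00449) in edgeR's quasi-likelihood test. Both calls held with each library left out. Sox6 was lower in Nkx castrate and in Clu intact than in Nkx intact (log2 fold changes -1.42 and -1.91). Sox18, a factor of endothelial cells, was higher in Clu intact (20.9 and 7.71 CPM) than in Nkx intact (0.574 and 0.988 CPM), and the endothelial marker sum was higher in the same libraries. Its log2 fold change of 4.18 was 3.30 without Clu intact 1. The calls of Sox18 were lost without either Nkx intact library and without Clu intact 1, and those of Sox6 without Nkx intact 2, the castration call also without Nkx intact 1 and the other without Clu intact 2. Of the 21 other forkhead genes tested, Foxq1 rose with castration (18.0 and 11.95 against 52.7 and 136 CPM, log2 fold change 2.65, SE 0.44, adjusted p = 0.0110), with the call lost without either Nkx intact library and a log2 fold change of 1.81 without Nkx castrate 2. Foxq1 (log2 fold change -1.62) and Foxj3 (-0.97) were lower in Clu intact than in Nkx castrate and Foxc1 (0.90) was higher in Clu intact than in Nkx intact. Each of these 3 calls was lost without either Clu intact library, those of Foxq1 and Foxc1 also without either Nkx intact library, and that of Foxq1 also without Nkx castrate 2, where its log2 fold change was -0.77. Trps1, a GATA-type repressor, rose with castration (log2 fold change 0.83, SE 0.18) and was lower in Clu intact than in Nkx castrate (-0.71, SE 0.18), and both calls were lost without any 1 of the Nkx intact or Clu intact libraries, the second also without Nkx castrate 2.

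**Figure D4:**
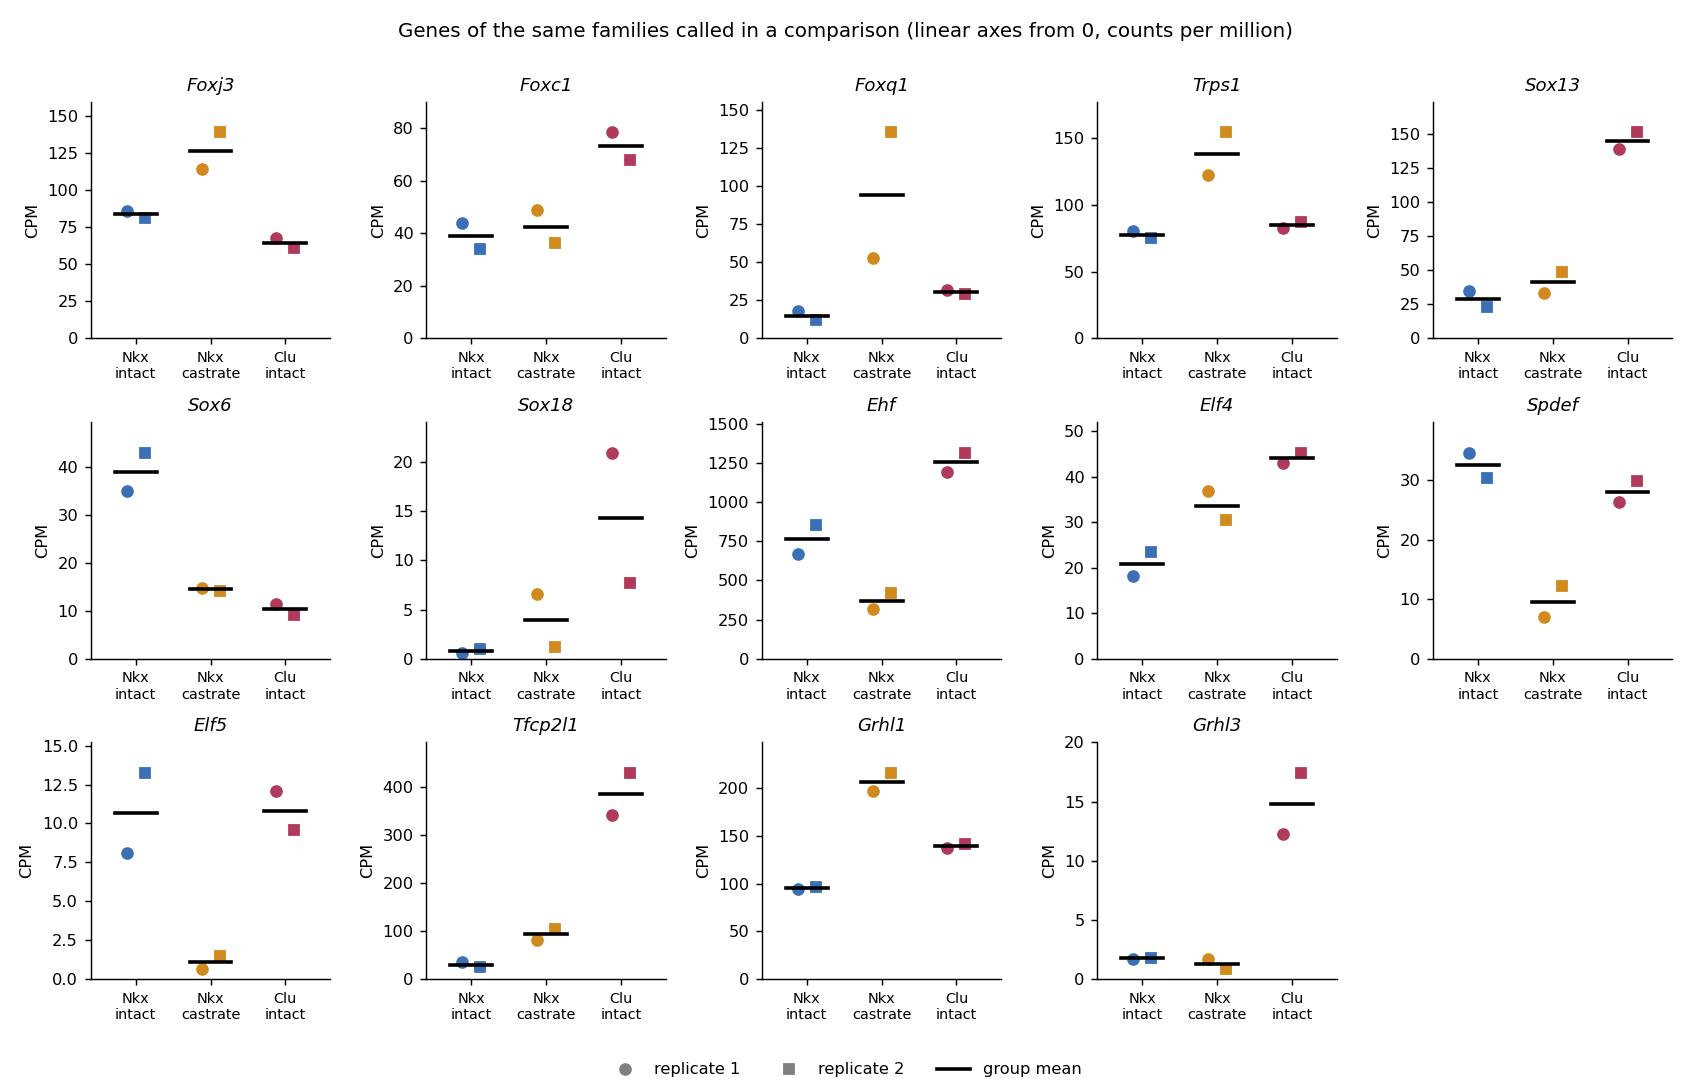
CPM in each library of the 14 genes of the same families called in at least 1 comparison, on linear axes that start at 0 and differ between panels. Circles and squares are replicates 1 and 2 and black lines are group means. Ehf, Elf5 and Spdef were lowest in Nkx castrate, while Tfcp2l1, Grhl3 and Sox13 were highest in Clu intact.

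A list of 37 other factors of epithelial lineages was set beside the 9, of which 34 were tested. With castration 8 were higher and 1 lower, in Clu intact against Nkx intact 11 were higher and 8 lower, and in Clu intact against Nkx castrate 8 were higher and 12 lower, beside 8.61%, 11.3% and 16.9% of all tested genes called. Klf5, a zinc finger factor of proliferating epithelia, was at 93.0 and 86.5 CPM (Nkx intact), 176 and 155 CPM (Nkx castrate) and 872 and 863 CPM (Clu intact). Its log2 fold changes were 0.88 (SE 0.17), 3.27 (SE 0.18) and 2.39 (SE 0.17), with adjusted p = 0.0175, 0.000199 and 0.000254 in edgeR's quasi-likelihood test. Klf4, Hes1 and Id1, which act in differentiation, Notch signalling and the inhibition of helix-loop-helix factors, were lower in Clu intact than in both Nkx groups, with log2 fold changes against Nkx intact of -1.92, -1.32 and -0.96. Against Nkx intact the Hes1 and Id1 calls were lost without any 1 of the Nkx intact or Clu intact libraries, and the Klf4 call without Nkx intact 1 or Clu intact 2. Against Nkx castrate the Hes1 call held with each library left out, the Klf4 call was lost without Clu intact 2 and the Id1 call without any 1 of the Nkx intact or Clu intact libraries. The castration call of Klf5 was lost without any 1 of the Nkx intact or Clu intact libraries. The counts called in this list moved when a library was left out, as did the number of all genes called. The median log2 fold change of the list with castration was 0.32, with 0.12 without Nkx castrate 2 and 0.39 without Nkx intact 1. In Clu intact against Nkx intact it was 0.02, with 0.01 without Nkx intact 2 and 0.22 without Clu intact 1. Against Nkx castrate it was -0.01, with -0.15 without Nkx castrate 1 and 0.16 without Nkx castrate 2.

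Of 20 junction and identity genes linked to GRHL2 in other epithelia, all tested, 3 were higher with castration (Cdh1, Spint1 and Cgn) and none lower by edgeR. Before adjustment, p was under 0.05 for 9 higher and 1 lower, while DESeq2 called 6 higher and 1 lower and limma-voom 4 higher and 0 lower. The shares of all tested genes under these 3 settings were 23.6%, 14.6% and 7.27%. Clu intact had 4 higher and 1 lower than Nkx intact, and 3 higher and 3 lower than Nkx castrate. Of all tested genes, 8.61% were called with castration and 11.3% and 16.9% in the comparisons of Clu intact. These shares are of the fit on all 6 libraries, and they also moved when a library was left out. Cdh1, which encodes E-cadherin, was at 928 and 810 CPM (Nkx intact), 1336 and 1605 CPM (Nkx castrate) and 1669 and 1902 CPM (Clu intact). Its log2 fold changes against Nkx intact were 0.76 (SE 0.19, adjusted p = 0.0498) and 1.04 (SE 0.19, adjusted p = 0.0134) in edgeR's quasi-likelihood test. Cgn, the tight junction protein cingulin, rose with castration by 1.71 on the log2 scale (SE 0.18, adjusted p = 0.00212). Cldn4, a claudin of tight junctions, was lower in Clu intact than in Nkx intact and Nkx castrate (log2 fold changes -1.18 and -2.07). The castration call of Cgn and the Cldn4 call against Nkx castrate held with each library left out, while both Cdh1 calls and the Cldn4 call against Nkx intact were lost without any 1 of the Nkx intact or Clu intact libraries. The counts called in the list of 20 also moved when a library was left out. Its median log2 fold change with castration was 0.60, with 0.86 without Nkx castrate 1 and 0.06 without Nkx castrate 2. In Clu intact against Nkx intact it was 0.55, with 0.43 without Nkx intact 2 and 0.61 without Clu intact 1. Against Nkx castrate it was 0.28, with 0.07 without Nkx castrate 1 and 0.50 without Nkx castrate 2. Of 9 mesenchymal factors and markers tested, none was called with castration, and Snai2 alone was called in the other comparisons (log2 fold changes -2.32 and -1.38 in Clu intact). Beside these counts, 8.61%, 11.3% and 16.9% of all tested genes were called. The first Snai2 call was lost without either Nkx intact library or Clu intact 2, and the second without any 1 library other than Nkx castrate 2. With castration, p was under 0.05 before adjustment for 1 of them, lower, and DESeq2 and limma-voom called 0. The median log2 fold change of the 9 with castration was 0.71, with -1.13 without Nkx castrate 1 and 1.36 without Nkx castrate 2.

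**Figure D5:**
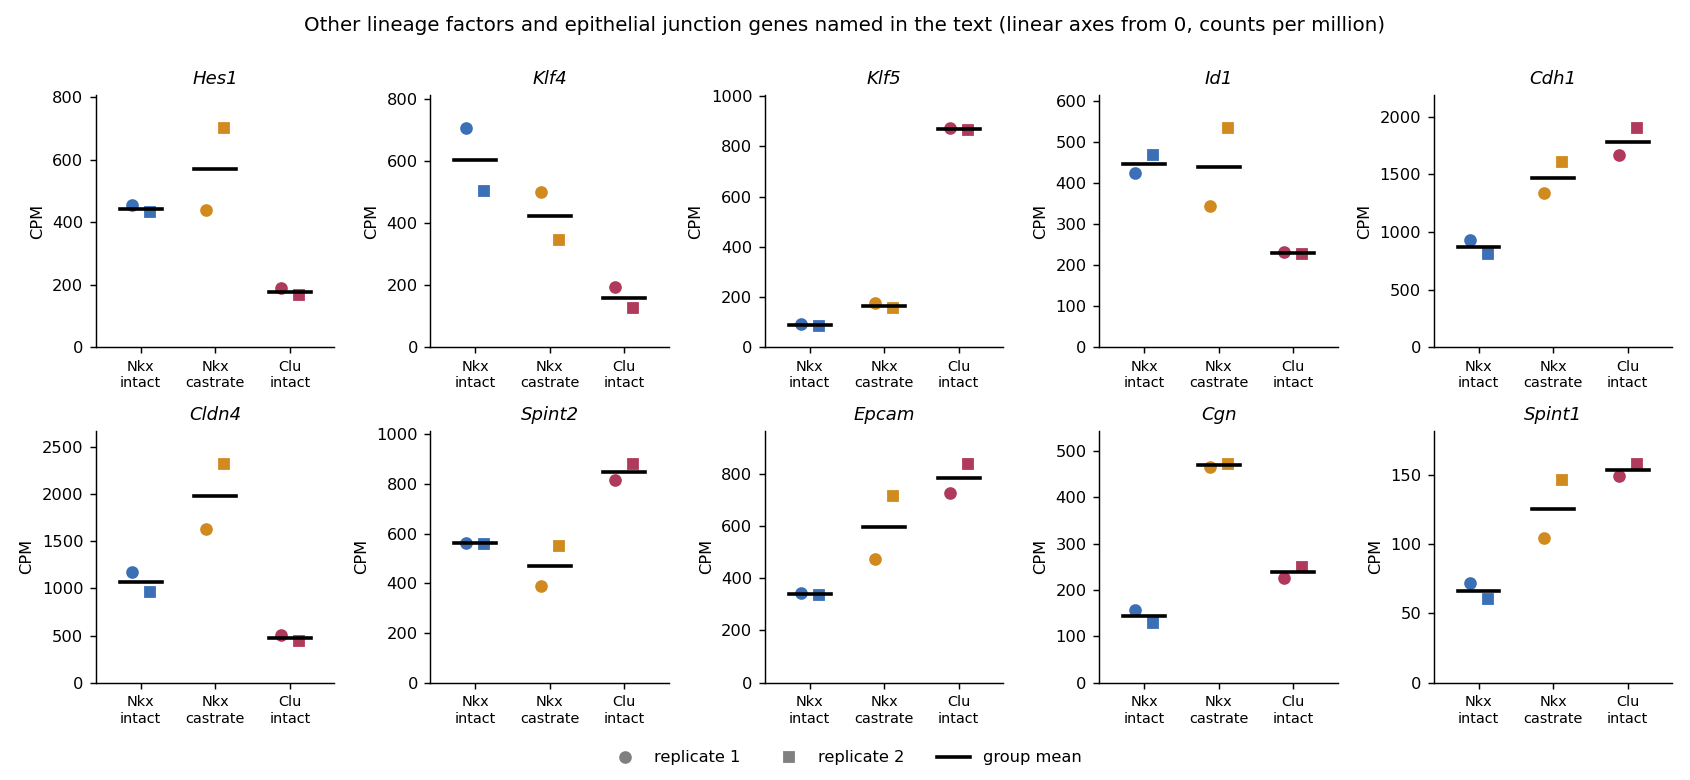
CPM in each library of 10 called genes from the lists of other lineage factors and of junction genes linked to GRHL2, on linear axes that start at 0 and differ between panels. Circles and squares are replicates 1 and 2 and black lines are group means. Klf5 was at 872 and 863 CPM in Clu intact and at 176 CPM or less in the Nkx libraries.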

How the data were processed

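Raw counts of reads for each gene symbol in 6 libraries were deposited by the authors. Per the labels, sorted cells were lysed, and a stranded kit for low input was given 2 ng of RNA. The submitters' processing notes name build GRCm39, featureCounts of Subread 2.0.1, the aligner STAR 2.7.9a, and FastQC 0.11.9. Not given in the sources used here: the annotation release, the strand setting, and how molecular identifiers and multimapping reads were treated. In GENCODE M21, genes on the opposite strand share 2616 exon bases with Sox4 and 155 to 169 with Gata3, Elf3 and Grhl2, so their counts could include antisense reads.

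Counts were filtered with edgeR 4.0.16 in R 4.3.3 (filterByExpr, 13846 of 24498 genes kept), scaled by TMM (factors 0.945 to 1.04) and modelled by glmQLFit on all 6 libraries, 1 mean per group (residual df 3, prior df 4.86). Comparisons used glmQLFTest, two-sided, and adjusted p (Benjamini-Hochberg) of 0.05. A positive log2 fold change means more in the group named first, and SE and 95% intervals come from the model. The fit was also run on counts simulated from its own estimated spread, which cannot show whether that spread suits groups of 2 libraries. The floor for a count of 0 is 3 counts and covers counting error only. The 9 genes and all lists were chosen with earlier results of these data known. From each list, up to 6 called genes with the highest mean CPM were named, except 2 that are not reported here, and the 3 nearest genes were sought for each tested factor. Alternatives were other scalings and filters, DESeq2 1.42.0, limma-voom (limma 3.58.1), the compared groups alone, a replicate block and leaving out each library.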

Additional observations from a re-analysis of the deposited data

How the results depend on the processing

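Of the 240 values for a factor's fold change under other scalings, filters, tests and fits, 219 kept their direction and side of the threshold, 20 passed it in addition, none lost a call and 1 changed sign: Gata2 in Clu intact against Nkx castrate, not called, at 0.022 on library totals alone. The factors called numbered 1, 1 and 2 for castration, for Clu intact against Nkx intact, and for Clu intact against Nkx castrate. They numbered 2, 4 and 4 without a filter and 2, 4 and 4 with DESeq2, 4 in the second comparison with only the groups compared, 2 there with upper quartile scaling, and 4 in the third with the replicate block. All genes called numbered 1192, 1563 and 2342. They numbered 2300, 2665 and 3518 without a filter (11.6%, 13.4% and 17.7%), where 19899 genes and all 9 factors were tested. With DESeq2 they numbered 2015, 2453 and 3362 (14.6%, 17.7% and 24.3% of the tested genes). With only the groups compared they numbered 671, 3309 and 1616 (4.98%, 25.1% and 11.9%). The labels do not link libraries by replicate number, and differences between replicates 1 and 2 correlated across genes at r = 0.0901, 0.0437 and 0.235 between groups. With the replicate block all genes called numbered 1511, 1964 and 2779.

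With 1 library left out, where the lone library is assumed to vary like the others, factors called ranged from 0 to 2, 1 to 4 and 1 to 4, and all genes called from 209 to 2412, 391 to 3351 and 687 to 3854. Of 144 fold changes, 122 kept direction and side, 4 lost a call, 11 gained one and 7 changed sign, none of them called in the full fit. Those with a change of sign ranged from -0.64 to 0.039 (Gata3) and -0.58 to 0.040 (Grhl2) with castration, from -0.35 to 0.016 (Sox4) in Clu intact against Nkx intact, and from -0.21 to 0.16 (Gata2), -0.47 to 0.21 (Gata3) and -0.10 to 0.48 (Sox4) in Clu intact against Nkx castrate. Why these values moved was not tested, beyond the smaller number of libraries. Foxa2 had too few counts for a test, and depth and absence of its transcript cannot be told apart below the floor of 3 counts.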
